A study of Homo sapiens with 6 samples.

Results

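The genes described here are the kinases, scaffolds and transcription factors through which glycogen synthase kinase 3 (GSK3) and Wnt act on beta-catenin. They were taken by gene symbol from a list: GSK3A and GSK3B, the scaffolds APC, AXIN1 and AXIN2, CTNNB1, which encodes beta-catenin, the TCF/LEF factors TCF7L1, TCF7L2 and LEF1, and NLK, a kinase that acts on those factors. All 10 were measured, out of 18418 genes, and each was read by 1 probe set whose annotation names no other gene. RNA came from U373MG, an established human glioblastoma cell line with no genetic change introduced. In 3 independent experiments the cells were exposed for 24 hours either to a compound or to dimethyl sulfoxide (DMSO), the solvent. The compounds were ET-770 (ecteinascidin-770) at 4.83 nM, ET-770-DR, which carries a pyridinecarbonyl group that ET-770 lacks, at 1.70 nM, and RM (renieramycin M) at 3.10 nM, each dose being the IC50 for these cells over a longer exposure. Each arm of each experiment was 1 Human Gene 1.0 ST array, so that 3 compound arrays stood against 3 DMSO arrays.

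In cells without a Wnt signal, a destruction complex built on APC and axin holds beta-catenin while casein kinase 1 and GSK3 phosphorylate it, and the marked protein is ubiquitinated and degraded. A Wnt ligand bound to a Frizzled receptor and LRP5 or LRP6 disables the complex, beta-catenin enters the nucleus, and there it turns TCF/LEF factors from repressors into activators. GSK3 has further substrates in glycogen, cytoskeletal and transcriptional control, and it has been studied as a survival kinase of glioblastoma cells. These are background facts on proteins, whereas the arrays read mRNA.

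Of the 10 genes, 6 fell with the compounds and 1 rose. GSK3B fell by 1.86 on the log2 scale, which is 0.275-fold and the largest change among them, and TCF7L2 fell by 1.72, which is 0.303-fold. NLK, LEF1, TCF7L1 and APC fell by smaller amounts, while GSK3A, the paralogue of GSK3B, rose by 0.41. CTNNB1, AXIN1 and AXIN2 did not pass the test. All 10 genes had a change of the same sign in each of the 3 experiments, 7 of them negative and 3 positive. The share of all genes with such a constant sign was not computed, so this count has no background beside it. The shared response was tested with limma over all genes in a model that blocks on experiment (n = 3 pairs), at a limit of 0.05 for the adjusted p. Among all genes, 11.2% fell and 13.1% rose. The median change was -0.64 over the 10 genes and 0.03 over all genes.

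The compounds served as replicates of one another in this test, so differences between compounds counted as spread. Standard errors (SE) are moderated by limma, and standard deviations (SD) are those of the 3 differences. Signals are robust multiarray average (RMA) values on the log2 scale, and they cannot be compared between genes, because probe sets differ in brightness. Array medians over the genes lay between 7.22 and 7.97, and within an experiment they differed by 0.06 at most. Among 12 astrocyte and glioma markers, VIM lay at 12.72 to 13.56, SOX2 at 10.47 to 12.43 and GFAP at 6.66 to 7.72. AQP4, a water channel of astrocytes, lay at 4.07 to 4.88. The widest range of the 12 was that of FABP7, at 8.28 to 12.99 over the 6 arrays, with a mean change of -0.84. Among markers of other cell types, the leukocyte gene PTPRC lay at 3.41 to 4.35 and the epithelial gene EPCAM at 3.87 to 4.89, whereas the lysosomal macrophage marker CD68 lay at 9.49 to 11.23 and the keratin KRT18 at 8.49 to 10.0. CD68 rose by 0.58 (adjusted p = 0.0062 from limma) and KRT18 by 0.91 (adjusted p = 0.00065), each as 1 of 5 markers of its list, of which 0 fell. The mean signal of the immune list was 5.68 to 6.62 on the DMSO arrays and 6.02 to 6.64 on the compound arrays, and that of the epithelial list 6.18 to 6.77 and 6.28 to 6.97. Of the neuronal markers 1 of 7 fell, of the oligodendrocyte markers 1 of 5 and of the endothelial markers 0 of 4, and 0 of these rose. Of 12 astrocyte and glioma markers 7 fell with the compounds and 0 rose, and their mean signal was 9.37 to 10.09 on the DMSO arrays and 8.75 to 9.69 on the compound arrays. The part of these marker changes in the results for the 10 genes was not tested. A lower signal can come from fewer cells that hold the mRNA or from less mRNA per cell, which cannot be told apart.

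Promoter sequences are shown for 4 of the genes: GSK3A and GSK3B as paralogues with changes of opposite sign, TCF7L2 as the gene that fell next to GSK3B, and LEF1 for its different base composition. RefSeq promoters on GRCh38.p14 were found for 8 of the 10 genes, the others being AXIN2 and NLK. Each window runs from 250 bases before the annotated start to 50 bases after it, and capitals mark GGGCGG or its reverse CCGCCC, the core of the GC box that Sp1 binds, and CTTTG or its reverse CAAAG, the core of the sequence that TCF/LEF factors bind.
GSK3A, chr19:42242553-42242852, minus strand: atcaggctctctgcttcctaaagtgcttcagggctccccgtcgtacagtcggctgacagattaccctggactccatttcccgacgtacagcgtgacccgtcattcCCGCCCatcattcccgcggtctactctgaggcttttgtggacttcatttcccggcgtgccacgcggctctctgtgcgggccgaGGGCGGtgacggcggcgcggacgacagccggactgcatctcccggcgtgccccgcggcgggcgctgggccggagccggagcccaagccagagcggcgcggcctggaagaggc
GSK3B, chr3:120094398-120094697, minus strand: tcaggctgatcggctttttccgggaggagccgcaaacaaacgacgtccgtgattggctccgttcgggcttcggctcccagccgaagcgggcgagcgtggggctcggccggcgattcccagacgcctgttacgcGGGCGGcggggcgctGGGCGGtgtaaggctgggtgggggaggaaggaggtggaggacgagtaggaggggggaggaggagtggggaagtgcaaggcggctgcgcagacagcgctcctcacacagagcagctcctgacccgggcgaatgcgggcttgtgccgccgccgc
TCF7L2, chr10:112949997-112950296, plus strand: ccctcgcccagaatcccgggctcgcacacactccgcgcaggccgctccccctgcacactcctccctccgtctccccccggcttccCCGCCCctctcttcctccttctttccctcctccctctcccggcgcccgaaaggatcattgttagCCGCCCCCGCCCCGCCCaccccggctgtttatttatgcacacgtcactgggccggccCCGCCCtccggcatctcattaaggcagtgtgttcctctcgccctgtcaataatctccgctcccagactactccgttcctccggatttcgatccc
LEF1, chr4:108166252-108166551, minus strand: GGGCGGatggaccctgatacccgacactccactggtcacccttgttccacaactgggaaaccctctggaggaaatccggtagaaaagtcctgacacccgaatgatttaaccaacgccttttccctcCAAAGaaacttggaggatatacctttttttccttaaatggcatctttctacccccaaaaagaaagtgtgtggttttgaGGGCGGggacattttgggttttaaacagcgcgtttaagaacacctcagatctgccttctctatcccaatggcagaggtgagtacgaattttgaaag

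Both GSK3 promoters are rich in G and C, at 67.3% for GSK3A and 69.3% for GSK3B, and each window holds 2 GC box cores. TCF7L2 is at 65.7% with 5 such cores, some of which run into each other. LEF1 is at 47.0%, below the median of 58.3% over 27305 promoters, with 2 GC box cores. GC box cores stand in 44.6% of all promoters, on either strand. The TCF core was found in the LEF1 window alone among the 8, against 47.6% of all promoters, and TATAAA or its reverse TTTATA in none of the 8, against 12% of all. Matches describe the letters in the window and nothing more. The promoter of AXIN1 is at 78.0% G and C with 8 GC box cores, CTNNB1 at 74.0% with 3, TCF7L1 at 74.3% with 1 and APC at 56.3% with 0. The 3 promoters of genes that did not fall thus lie at 67.3% to 78.0% and the 5 of genes that fell at 47.0% to 74.3%. LEF1 alone sets the low end, and the next of the 5 is APC at 56.3%. Each gene is given by a single window, so these values do not cover other starts that it may have.

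GSK3B encodes the beta isoform of GSK3, a constitutively active serine and threonine kinase. Its signal on the DMSO arrays was 9.55, 8.41 and 9.07 in the ET-770, ET-770-DR and RM experiments, and on the compound arrays it was 7.37, 6.66 and 7.41. Every compound array thus lay below every DMSO array, which held for 5.34% of all genes in this direction. The mean difference was -1.86 (SE 0.14, SD 0.28, n = 3 pairs, adjusted p = 2.4e-05 from limma). GSK3A encodes the alpha isoform, which phosphorylates many of the same substrates. Its signal was 11.27, 10.52 and 9.42 on the DMSO arrays and 11.55, 10.92 and 9.97 on the compound arrays of the same experiments. The compound array was the higher one within each experiment, but the DMSO arrays spread over 1.85, far more than the mean difference of 0.41 (SE 0.12, SD 0.13, n = 3 pairs, adjusted p = 0.038 from limma). The call for GSK3A was lost without any one experiment, at adjusted p = 0.19 without ET-770, 0.098 without ET-770-DR and 0.051 without RM, and after quantile normalization, at 0.051. With the average of all 3 DMSO arrays, whose medians differ, as control, the RM difference of GSK3A changed from 0.55 to -0.44.

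The change of GSK3A exceeded that of GSK3B in all 3 experiments, by 2.47, 2.15 and 2.21 on the log2 scale, a mean of 2.28 (SD 0.17, n = 3). An exact two-sided sign permutation test of these differences gave p = 0.25, the smallest p that 3 pairs allow. The same subtraction for the other paralogues gave 0.99 (SD 0.41) for TCF7L1 minus TCF7L2 and 0.05 (SD 0.20) for AXIN1 minus AXIN2, with exact permutation p = 0.25 and 0.75.

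**Figure D1:**
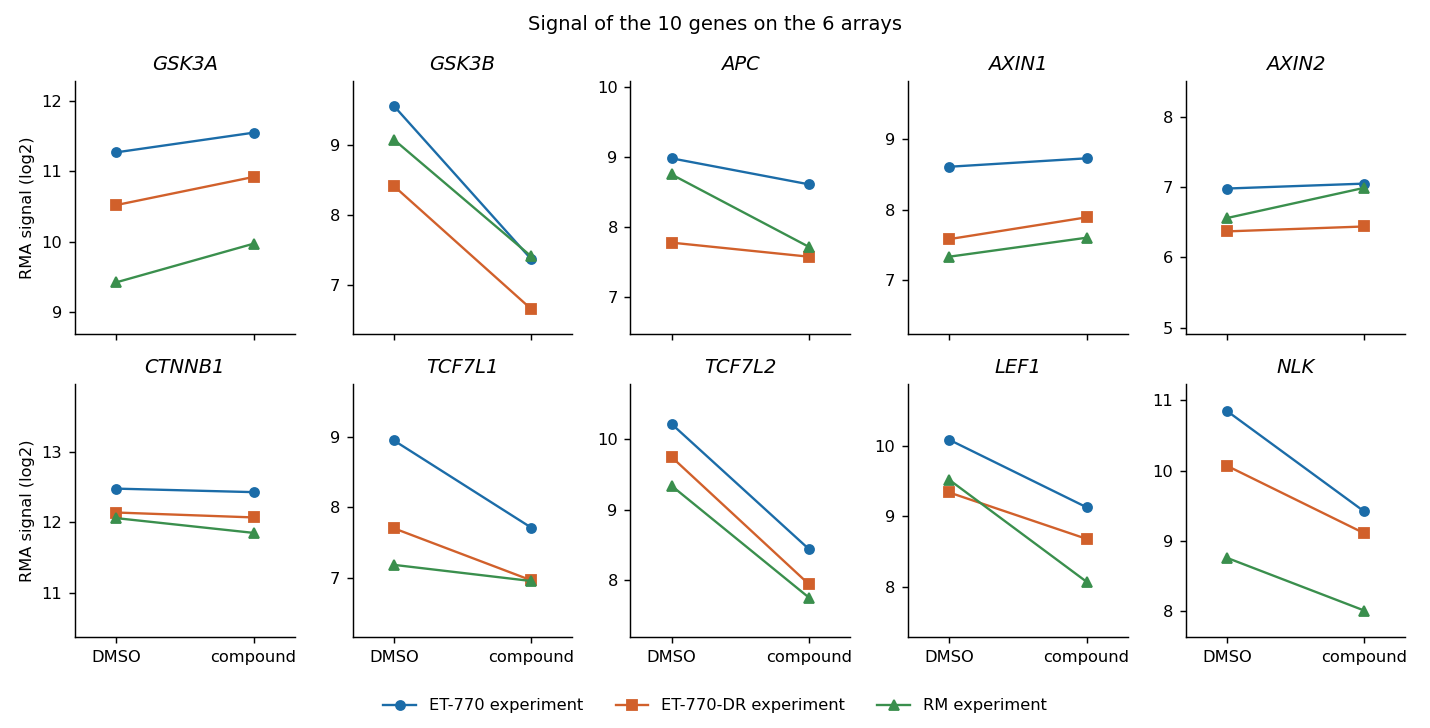
RMA signal (log2, vertical axis) of the 10 genes on the DMSO array and the compound array of each experiment, with a line joining the arrays of 1 experiment. Each panel spans 3.6 log2 units around its own centre. The 3 lines of GSK3B, TCF7L2 and LEF1 end below all of their starting points, those of CTNNB1 are nearly level, and those of GSK3A run upwards at 3 separate heights.

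Among the scaffolds of the destruction complex, APC encodes the large protein that is lost in most colorectal tumours. Its signal was 8.98, 7.78 and 8.75 on the DMSO arrays of the ET-770, ET-770-DR and RM experiments and 8.61, 7.58 and 7.72 on the compound arrays. The change was -1.04 in the RM experiment but -0.37 and -0.20 in the other 2, and the groups overlapped. The mean change was -0.54 (SE 0.17, SD 0.44, adjusted p = 0.043 from limma, n = 3 pairs). Without the RM experiment it was -0.29 with adjusted p = 0.11, and the call was also lost without the ET-770 experiment, at 0.054, and with median centring, at 0.069.

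AXIN1 encodes the scaffold that limits how much destruction complex forms. It was at 8.61, 7.58 and 7.33 on the DMSO arrays and at 8.73, 7.89 and 7.60 on the compound arrays, a mean difference of 0.24 (SE 0.12, SD 0.10, adjusted p = 0.21 from limma, n = 3 pairs). AXIN2, a close relative of AXIN1 and a widely used target gene of beta-catenin and TCF, was at 6.98, 6.37 and 6.56 with DMSO and at 7.05, 6.44 and 6.99 with the compounds. On all 6 arrays AXIN2 was below the array's median over the genes. Its mean difference was 0.19 (SE 0.13, SD 0.21, adjusted p = 0.39 from limma, n = 3 pairs), most of it from the RM experiment.

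CTNNB1, whose product is both the effector of Wnt signalling and a part of cadherin junctions, was at 12.48, 12.14 and 12.06 on the DMSO arrays and at 12.43, 12.07 and 11.85 on the compound arrays. Its mean difference of -0.11 (SE 0.12, SD 0.09, adjusted p = 0.64 from limma, n = 3 pairs) was the smallest in size among the 10 genes. In the deposited values the DMSO arrays of CTNNB1 lay within 0.42 of each other, a narrower range than for the other 9 genes. After quantile normalization its range was 0.3, and those of AXIN2, at 0.28, and LEF1, at 0.08, were narrower.

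TCF7L2 encodes the TCF factor that is best known in the intestinal epithelium and in the inherited risk of type 2 diabetes. It was at 10.22, 9.75 and 9.34 on the DMSO arrays of the ET-770, ET-770-DR and RM experiments and at 8.44, 7.94 and 7.75 on the compound arrays, with no overlap between the groups. The 3 differences, -1.77, -1.81 and -1.59, lay close together, with a mean of -1.72 (SE 0.12, SD 0.12, n = 3 pairs, adjusted p = 1.9e-05 from limma). LEF1, a factor of the same family that is prominent in lymphocytes and in epithelial to mesenchymal transitions, was at 10.09, 9.34 and 9.52 with DMSO and at 9.13, 8.68 and 8.07 with the compounds, again without overlap. LEF1 fell by 1.02 (SE 0.16, SD 0.40, adjusted p = 0.0014 from limma, n = 3 pairs). RM had the largest difference for LEF1, at -1.45.

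TCF7L1, which acts mainly as a repressor in stem cells, was at 8.95, 7.70 and 7.18 on the DMSO arrays and at 7.71, 6.96 and 6.95 on the compound arrays. The compound arrays of TCF7L1 spanned 0.76, against 1.77 for the DMSO arrays, and the groups overlapped. Its differences were -1.24, -0.74 and -0.23, with a mean of -0.74 (SE 0.18, SD 0.50, adjusted p = 0.014 from limma, n = 3 pairs). Without the ET-770 experiment the mean was -0.49 and the adjusted p 0.18.

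NLK encodes Nemo-like kinase, which phosphorylates TCF/LEF factors and other transcription factors. It was at 10.85, 10.07 and 8.76 with DMSO and at 9.42, 9.11 and 8.01 with the compounds. Within each experiment the compound array was the lower one, yet the DMSO array of the RM experiment lay below 2 of the compound arrays. NLK fell by 1.04 (SE 0.15, SD 0.35, adjusted p = 0.0009 from limma, n = 3 pairs). Its DMSO arrays spread over 2.09, the widest range of the 10 genes, and after quantile normalization still over 1.65. By the same normalization the DMSO range of LEF1 shrank from 0.75 to 0.08.

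**Figure D2:**
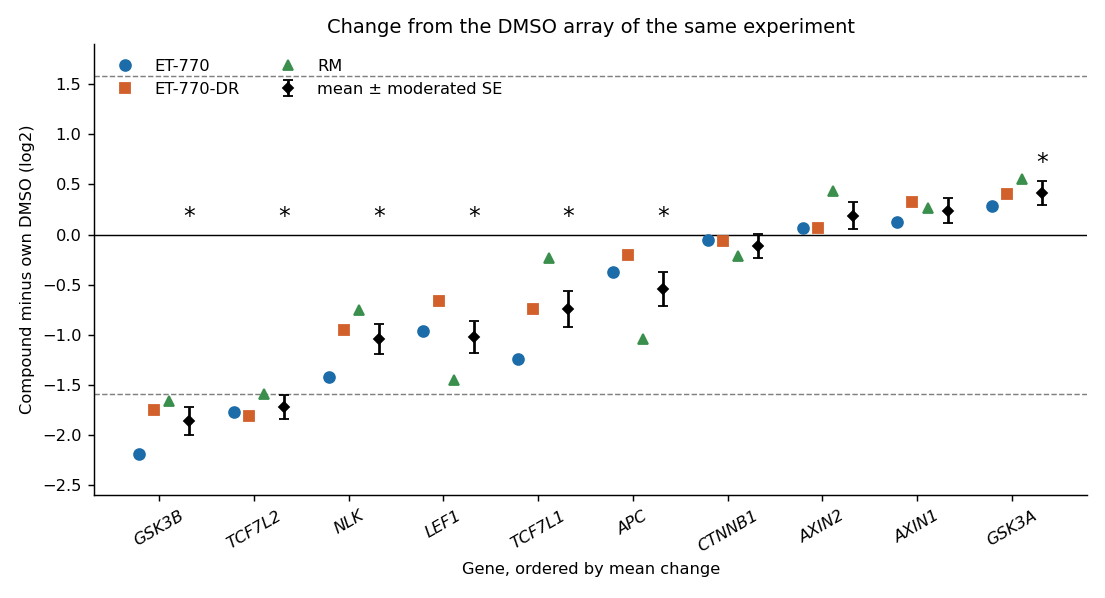
Difference between the compound array and the DMSO array of the same experiment (log2, vertical axis) for the 10 genes in order of their mean. Coloured points are the 3 compounds, black diamonds the mean with its moderated SE, asterisks mark an adjusted p under 0.05, and dashed lines mark a 3-fold rise and fall. GSK3B and TCF7L2 lie at or beyond the lower dashed line with every compound, and no point reaches the upper one.

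Side by side, the compounds gave the following at their different doses, which is why no comparison between them was made. Folds are relative to each compound's own DMSO array and in the order ET-770, ET-770-DR and RM. GSK3B was at 0.22-fold, 0.298-fold and 0.316-fold. TCF7L2 was at 0.292-fold and 0.286-fold in the ET-770 and ET-770-DR experiments, and its log2 difference with RM was -1.59. These were the only 2 of the 10 genes more than 3-fold lower, a limit taken from the methods of the study, and they were so with each compound. Among all genes 2.15%, 2.12% and 1.36% were beyond this limit in the same order. TCF7L2 with RM lay close to the limit and no longer passed it after quantile normalization, at -1.57. When all 3 DMSO arrays were averaged as the control, TCF7L2 was not beyond the limit with ET-770, and NLK was with RM, where its difference went from -0.75 to -1.88. Array medians, which differ between experiments, were not adjusted for in that control. None of the 10 genes was over 3-fold with any compound, against 0.233%, 0.51% and 0.0434% of all genes, and none had every compound array above every DMSO array, which held for 3.62%. LEF1 was at 0.513-fold, 0.634-fold and 0.366-fold, NLK at 0.373-fold, 0.516-fold and 0.595-fold and TCF7L1 at 0.424-fold, 0.597-fold and 0.853-fold. With 1 array per arm these folds have no replicate check.

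The 10 genes differ in the length of their transcription units, which the choice of the genes did not use. Lengths were read from RefSeq for GRCh38.p14 by Entrez ID, for all 10 genes and for 18386 of the 18418. GSK3A spans 12.4 kb, AXIN2 33.1 kb, CTNNB1 40.9 kb and AXIN1 65.3 kb, and none of these 4 fell. LEF1 spans 121.4 kb, APC 138.7 kb, NLK 163.4 kb, TCF7L1 177.0 kb, TCF7L2 217.4 kb and GSK3B 273.1 kb, and all 6 fell. The genes that fell the most, GSK3B and TCF7L2, are the longest, and the gene that rose is the shortest. Spearman's rho between length and mean log2 change was -0.90 over the 10 genes, and -0.94, -0.93 and -0.87 with ET-770, ET-770-DR and RM taken singly.

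Over all measured genes the direction was the same, with rho = -0.40 over 18386 genes. Of the other 3114 genes over 100 kb, 47.6% fell and 0.546% rose, with a median log2 change of -0.38. Of the other 15262 genes up to 100 kb, 3.75% fell and 15.6% rose, with a median of 0.07. Genes are not independent replicates, and these values on length are descriptions that were computed after the changes had been seen, with the limit of 100 kb set then. Set beside genes of like length, the members were not at the extremes. GSK3B and TCF7L2 belong to the genes between 200 and 400 kb, whose median change was -0.68, and 13.1% and 16.5% of the other 857 such genes had a lower value. LEF1 and NLK belong to those between 100 and 200 kb, with a median of -0.33, where 12.3% and 11.7% of the other 1809 genes were lower. For APC and TCF7L1 in the same range the shares were 36.3% and 25.1%. Among genes up to 20 kb, 82.0% of the others were below GSK3A, and among those between 50 and 100 kb 86.7% were below AXIN1. Between 20 and 50 kb, 16.7% of the others were below CTNNB1 and 63.0% below AXIN2.

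**Figure D3:**
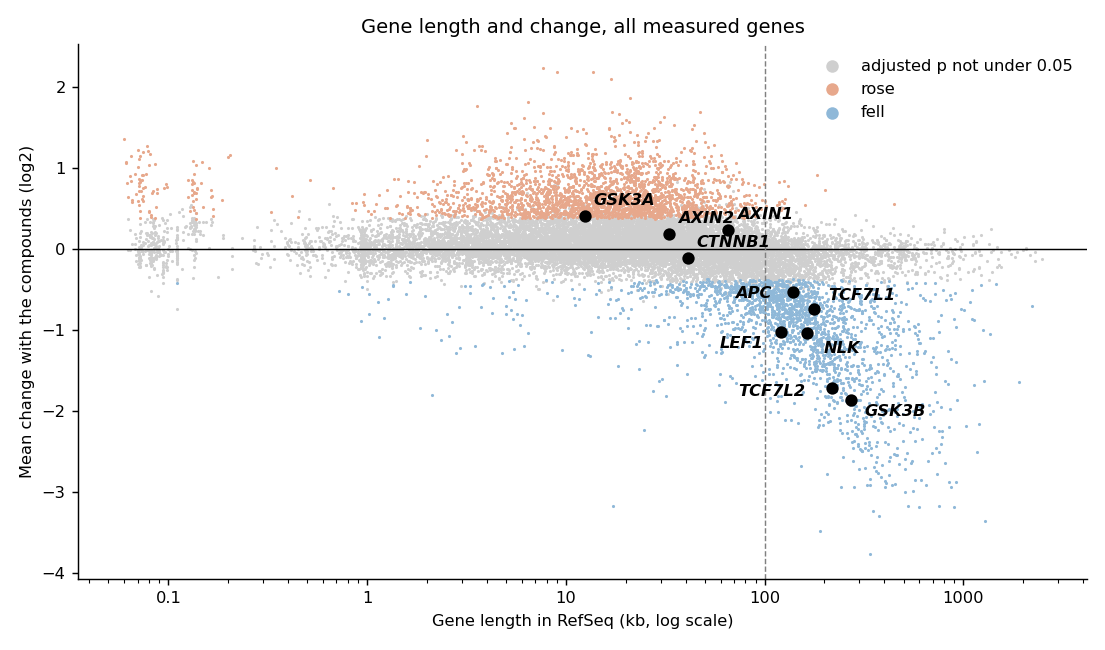
Gene length in RefSeq (kb, log scale, horizontal axis) and mean change with the compounds (log2, vertical axis) of 18386 genes, coloured by the limma call, with the 10 genes in black. The dashed line stands at 100 kb. The 6 named genes to its right all lie below -0.5, while the 4 to its left lie between -0.11 and 0.41, within clouds of genes of similar length.

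The genes with the changes most like those of GSK3B in the 3 experiments, by Euclidean distance on the log2 scale over all 18418 genes, were FRYL (0.10), ST3GAL1 (0.11) and GLI3 (0.17), a transcription factor of Hedgehog signalling. FRYL had differences of -2.15, -1.82 and -1.72 with ET-770, ET-770-DR and RM. Nearest to TCF7L2 were FOCAD (0.12), DOCK5 (0.12), which encodes an exchange factor for Rac, and HLCS (0.14), which encodes the enzyme that attaches biotin to carboxylases. Nearest to LEF1 were AFG2A (0.12), EHMT1 (0.13), a histone methyltransferase, and REP15 (0.18). Nearest to NLK were PAN3 (0.06), a subunit of a deadenylase, EEFSEC (0.10), the elongation factor for selenocysteine, and CLASP2 (0.16). Of these 12 genes, 11 are over 100 kb long. REP15, at 1.2 kb, is the exception. Over all 18386 genes with a length, 3120 are over 100 kb. Among the genes that fell by the limma test, 1488 are over 100 kb and 573 are not, so a search for such falls favours long genes.

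Other genes of the pathway were taken from 11 lists written for this purpose, which hold 199 measured genes besides the 10, and 12 further genes of the lists are not analysed here. Of these 50 fell, which is 25.1%, and 21 rose, which is 10.6%, beside 11.2% and 13.1% of all genes. Their median change was -0.04. Of the 63 that are over 100 kb long 41 fell and 0 rose, and of the 136 others 9 fell and 21 rose.

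Of 19 Wnt ligands 0 fell and 1 rose, WNT3, by 0.54 (SE 0.13, adjusted p = 0.012 from limma, n = 3 pairs). The median of the ligands was 0.06, and 0 of them are over 100 kb long. Of 16 Wnt receptors 5 fell and 3 rose. Among the 4 receptors over 100 kb long 3 fell. Of the LRP co-receptors, LRP5 fell by 1.01 (SE 0.12, adjusted p = 0.00031) and LRP6 fell by 0.87 (SE 0.13, adjusted p = 0.001), and the receptor kinase ROR1 fell by 0.60 (SE 0.13, adjusted p = 0.0099). In the ET-770, ET-770-DR and RM experiments LRP5 was at 0.487-fold, 0.515-fold and 0.485-fold. Of 23 genes of Wnt secretion and extracellular regulation 4 fell and 1 rose. Among the 7 of these genes over 100 kb long 2 fell. LGR4, a receptor for R-spondins that strengthens Wnt signals, fell by 1.84 (SE 0.12, adjusted p = 1.4e-05), KREMEN1, a receptor for Dickkopf inhibitors, fell by 0.77 (SE 0.18, adjusted p = 0.011), and FRZB, a secreted Wnt antagonist, rose by 0.56 (SE 0.15, adjusted p = 0.025).

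In the cytoplasm, 7 of 29 regulators of the destruction complex fell and 4 rose. USP34, a deubiquitinase that acts on axin, fell by 1.94 (SE 0.13, adjusted p = 1.3e-05 from limma, n = 3 pairs). BTRC, the ubiquitin ligase subunit that recognises phosphorylated beta-catenin, fell by 1.83 (SE 0.19, adjusted p = 0.00017), and TNKS, tankyrase, which marks axin for degradation, fell by 1.52 (SE 0.15, adjusted p = 0.00011). Members that promote and members that limit the breakdown of beta-catenin were thus both among those that fell. Of these 29 regulators 8 are over 100 kb long, and the 7 that fell are among them. Of 13 kinases that act upstream of GSK3 or prime its substrates, 0 fell and 1 rose, DYRK1B, by 0.45 (SE 0.13, adjusted p = 0.033). Genes over 100 kb long number 3 among these 13.

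Of 20 GSK3 substrates outside the Wnt pathway 7 fell and 2 rose. Genes over 100 kb long number 10 among the 20 and 6 among the 7 that fell. PTK2, the focal adhesion kinase, fell by 2.06 (SE 0.13, adjusted p = 1e-05 from limma, n = 3 pairs), and CLASP1 and CLASP2, which bind microtubule ends, had mean log2 changes of -1.76 and -1.07. In the nucleus, 5 of 21 cofactors fell and 3 rose. The 5 that fell are among the 7 cofactors over 100 kb long. TBL1X and TBL1XR1, subunits of a corepressor complex that also bind beta-catenin, had mean log2 changes of -1.43 (SE 0.19, adjusted p = 0.00058) and -1.34 (SE 0.12, adjusted p = 6.5e-05), while PYGO1, a coactivator, rose by 0.94 (SE 0.15, adjusted p = 0.0015). Of 9 genes that act with NLK 2 fell and 2 rose. The 2 that fell are among the 4 of these genes over 100 kb long. HIPK2, a kinase that activates NLK, fell by 1.75 (SE 0.12, adjusted p = 1.4e-05), and the NLK substrates MYB and FOXO4 rose by 1.20 and 0.45.

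**Figure D4:**
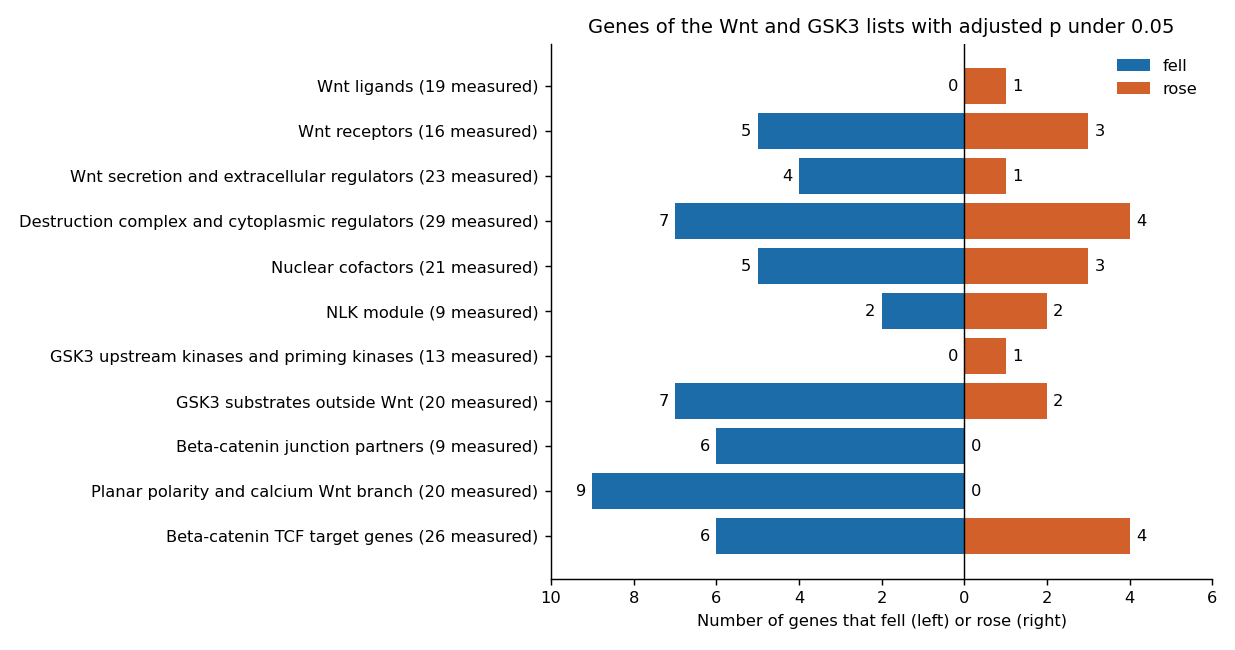
Number of genes that fell (bars to the left) or rose (bars to the right) with an adjusted p under 0.05 in each of 11 lists of Wnt and GSK3 genes, with the number measured in parentheses. Junction partners and the planar polarity and calcium branch have 6 and 9 genes that fell and 0 that rose, whereas the ligands have 0 that fell. Genes over 100 kb long number 7 and 11 in the first 2 of these lists and 0 among the ligands.

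Partners of beta-catenin at cell junctions had the lowest median of the lists, at -0.80, with 6 of 9 that fell and 0 that rose. CDH11, a cadherin of mesenchymal cells, fell by 1.98 (SE 0.12, adjusted p = 8.7e-06 from limma, n = 3 pairs), CTNND2, a delta-type catenin of neural tissue, fell by 1.86 (SE 0.27, adjusted p = 0.00086), and CDH2, N-cadherin, fell by 0.86 (SE 0.12, adjusted p = 0.00081). In the same 3 experiments, taken as ET-770, ET-770-DR and RM, CTNND2 was at 0.193-fold, 0.192-fold and 0.562-fold. Of these 9 genes 7 are over 100 kb long, and the 6 that fell are among them.

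In the branches of Wnt signalling that do not use beta-catenin, 9 of 20 genes fell and 0 rose, with a median of -0.42. Of these 20 genes 11 are over 100 kb long, and 8 of the 9 that fell are among them. PLCB1, a phospholipase C, fell by 3.18 (SE 0.12, adjusted p = 4.6e-06 from limma, n = 3 pairs), the largest change among the pathway genes named here, and its folds in the ET-770, ET-770-DR and RM experiments were 0.111, 0.114 and 0.106. CAMK2D, a calcium and calmodulin dependent kinase, fell by 2.28 (SE 0.13, adjusted p = 7.8e-06), and DAAM1, a formin of the planar polarity branch, fell by 1.48 (SE 0.22, adjusted p = 0.0011).

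Genes that beta-catenin and TCF factors are known to activate moved both ways, with 6 of 26 that fell, 4 that rose and a median of -0.02. Among the 5 of these genes over 100 kb long 3 fell. NRCAM, a neural adhesion molecule, fell by 2.50 (SE 0.15, adjusted p = 8.3e-06 from limma, n = 3 pairs) and TNFRSF19 fell by 1.06 (SE 0.16, adjusted p = 0.001). MYC rose by 0.91 (SE 0.27, adjusted p = 0.034), and its folds were 2.94 in the ET-770 experiment, 2.42 in the ET-770-DR experiment and 0.925 in the RM experiment. AXIN2 belongs to the same kind of gene and did not pass the test.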

How the data were processed

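The deposited values are log2 signals of 6 Human Gene 1.0 ST arrays, which the authors computed by RMA in Affymetrix Expression Console, per the labels. Versions and the genome build of that step are not given in the sources used here. Whether the 3 experiments were normalized together was not established. Of 33297 probe sets, 19460 carry 1 gene symbol in the platform annotation and were averaged per gene on the log2 scale, whereas 1754 with several symbols and 12083 with none were left out.

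The shared response was estimated in R 4.3.3 by limma 3.58.1, whose model held experiment and treatment, eBayes without trend and Benjamini-Hochberg adjustment over 18418 genes. The script was tested on simulated data. The labels and methods pair each compound with a DMSO array. Deviations from the treatment means correlated at 0.69 to 0.83 within experiments and at 0.24 at most across them. The experiments are called independent, with no word on cultures, so that p-values measure the spread between these arrays, which may be technical, and the number of arrays limits the precision.

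The members and lists were chosen with earlier results of these data known. Named besides the 10 genes are up to 3 genes per list with the largest changes among those that passed, and the 3 nearest in pattern to GSK3B and to each other member that passed with a change over 1. Gene lengths and promoters came from RefSeq tables for GRCh38.p14. Alternatives were other normalizations, controls, filters and probe rules, a variance trend, no block and each experiment left out. Figures used Python 3.11.15 and matplotlib 3.10.9.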

Additional observations from a re-analysis of the deposited data

How the results depend on the processing

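The mean change of none of the 10 genes changed sign under any of 10 alternatives. Dropping the block, leaving out dim genes, the variance trend and the probe rules cannot alter these means. Only the 2 other normalizations and leaving out an experiment could therefore turn a sign. GSK3B and TCF7L2 passed the test under all 10 alternatives, between -1.97 and -1.70 and between -1.79 and -1.68. Without the replicate block, which ignores that each compound array has its own DMSO array, 2 members fell (GSK3B and TCF7L2) and 0 rose, and 13 pathway genes fell and 0 rose, while the calls among all genes dropped to 2.0% lower and 0.141% higher. LEF1 and NLK lost their calls under that setting alone, at adjusted p = 0.38 and 0.43. After quantile normalization 0 members rose. Leaving out each experiment gave 4 to 6 members that fell and 0 that rose, 40 to 52 pathway genes that fell and 7 to 29 that rose, the 7 being without ET-770, while 8.17% to 14.3% of all genes fell and 6.52% to 19.0% rose. With all 3 DMSO arrays averaged as the control, 1 member was more than 3-fold lower with ET-770 (GSK3B), 2 with ET-770-DR and 3 with RM (NLK added), beside 1.19%, 3.2% and 2.57% of all genes. Under quantile normalization 1 was with RM, beside 1.25%. At a 2-fold limit 4, 2 and 4 members were lower with ET-770, ET-770-DR and RM, beside 4.68%, 4.94% and 4.28% of all genes. The averaged control moved 20 of the 30 single differences by more than the SD of the 3 experiments and turned the sign of 5: CTNNB1 (-0.05 to 0.20) and APC (-0.37 to 0.10) with ET-770, AXIN2 with ET-770-DR (0.07 to -0.20), and GSK3A (0.55 to -0.44) and AXIN1 (0.27 to -0.23) with RM. No adjustment was made for array medians, which were 7.97, 7.28 and 7.40 for DMSO in the ET-770, ET-770-DR and RM experiments. Offsets shared by all genes of an array are therefore part of these shifts. Quantile normalization and median centring moved the median change of all genes by 0.04 at most. Each member has 1 probe set, so probe rules altered none of their changes. The table gives no detection calls, so that low signals such as that of AXIN2 could not be set against background.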
